A study of Mus musculus with 2 samples.

Results

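Krt14/Krt5-gated cells are the cells of the injured Vegfd-overexpressing mouse hindlimb library that carry the keratin pair of the basal epidermal layer without the keratin pair of the layers above it. They were chosen by measured values: at least 500 detected genes, at most 10% mitochondrial UMIs (unique molecular identifiers, each counting 1 captured mRNA molecule), a sum of Krt14 and Krt5 of at least 20 UMIs per 10000 UMIs of the cell, a sum of Krt1 and Krt10 below 50 per 10000, and at most 1 UMI of the leukocyte gene Ptprc. The rule found 217 cells among the 9366 kept injured cells (2.32%, exact binomial 95% interval 2.02 to 2.64) and 0 among the 4760 kept uninjured cells, out of 14126 kept cells in all. They were set against 65 suprabasal cells of the injured library, with Krt1 and Krt10 at 50 or more per 10000, and against 9070 other injured cells; 14 keratin-positive cells with 2 or more Ptprc UMIs were in none of these groups.

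Both libraries came from mice that carried the Hoxa11 wt/CreERT2 allele together with R26 wt/LSL-rtTA and the TetO-Vegfd transgene, in which a Hoxa11-driven, tamoxifen-dependent Cre opens an rtTA gene that can switch on Vegfd. The injured library was made from the Achilles tendon side that underwent tenotomy together with a burn, at post-tenotomy day 7, and the uninjured library from the contralateral limb of animals with the same procedure, so both carry the transgene and the burn. The soft tissue behind the tibia, which lies under skin, was cut out and digested with collagenase and dispase before 3′ droplet sequencing. Mice were male and female, 8 to 12 weeks old, with 5 per group in the study's design; the number pooled into each library was not given, and each condition had 1 library. No test between conditions or between groups of cells of 1 library was therefore possible, and all intervals below cover counting error only.

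Keratinocytes of the basal epidermal layer sit on the basement membrane, attached through hemidesmosomes, and hold one another through desmosomes. They divide, and their daughters move upward, switch from Krt5 and Krt14 to Krt1 and Krt10 and finally build the cornified envelope. At a wound edge keratinocytes turn on Krt6, Krt16 and Krt17, stress keratins, while cells of the hair follicle, marked in the mouse by Krt15, Lgr5, Lhx2 and Sox9, form a reservoir that can feed the epidermis after injury.

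The injured library held 10691 barcodes and 253050820 UMIs, and the uninjured library 6850 barcodes and 101685524 UMIs; 19 barcode sequences occurred in both, 1 of them in a gated cell. Gated cells had a median of 21048 UMIs (836 to 182078), suprabasal cells 38769 and other injured cells 17589. In the kept uninjured cells Krt14 and Krt5 had 0 UMIs each, and 0 gated cells allow a share of up to 0.063% at a floor of 3 counts (exact binomial upper limit 0.0775%), whereas Krt1 had 3 UMIs and Krt10 had 1313. Even so, 0 kept uninjured cells met the suprabasal rule. Over all 6850 uninjured barcodes, Krt14 and Krt5 also had 0 UMIs each. Fewer keratinocytes taken with the uninjured tissue and less keratin RNA per cell cannot be told apart from these values. Scrublet, a doublet caller, marked 1 of 9366 cells at its automatic setting and so did not work; at a score above 0.2 it marked 202 cells, 4 of them gated.

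Checked against their genes, the gated cells were keratinocytes for the most part, but the name of basal wound keratinocytes describes only some of them, so they are called by the rule here. A set of 172 cells, 79.3% of the gated cells, carried little RNA of other cell types, and 167 of them (97.1%) had UMIs of at least 3 of Trp63 (the master transcription factor of stratified epithelia), Epcam (an epithelial adhesion molecule), Perp and Dsp (both desmosome genes). The other 45 barcodes (20.7%) held RNA of another type beside the keratins. Of these, 25 had phagocyte genes at 50 or more per 10000, 14 had collagen genes at 100 or more and 6 had endothelial genes at 5 or more. The bounds were set after the values were seen, so these groups are descriptions. The phagocyte-gene barcodes had a median of 985 UMIs, 0 of 25 had 3 of the 4 epithelial genes, and 18 met the rule on 3 or fewer keratin UMIs; the median was 3 Krt14 and Krt5 UMIs, against 148 in the 172 cells. The collagen-gene barcodes had a median of 76351 UMIs and the 4-gene count in 12 of 14, and the endothelial-gene barcodes 54611.5 UMIs and 4 of 6. Whether these barcodes are doublets, free RNA or cells was not tested. Counts over all genes are given with and without them. List counts and levels of gated cells include them unless stated.

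Summed over its members, the 6-gene fibroblast list stood at 4741 CPM (UMIs per 1000000 UMIs summed over a group) in gated cells, 8241 CPM in suprabasal cells and 28184 CPM in other injured cells; within the gated cells it was 27099 CPM in the collagen-gene barcodes and 343 to 399 CPM in the 3 subsets of the 172 cells described next. The 6-gene phagocyte list stood at 20475 CPM in the phagocyte-gene barcodes and at 72.8 to 127 CPM in those 3 subsets, against 3400 CPM in other injured cells. The endothelial list stood at 172 CPM in gated cells and 1012 CPM in other injured cells. Langerhans or dendritic and melanocyte lists were low in gated cells: the 6 Langerhans or dendritic genes summed to 31.2 CPM in gated cells and 2147 CPM in other injured cells, and the 6 melanocyte genes to 2.35 CPM in gated cells and 32.7 CPM in other injured cells. The 6 T cell genes summed to 53.4 CPM in gated cells, 68.9 CPM in suprabasal cells and 26.2 CPM in other injured cells. Of the gated sum, 52.5 CPM was Trbc2, a T cell receptor constant gene, and 4 of the 6, Cd3e and Cd3d among them, had 0 UMIs in gated cells. The neutrophil list, whose S100a8 and S100a9 are also genes of wound epidermis, stood at 900 CPM in gated cells, 1233 CPM in suprabasal cells and 1593 CPM in other injured cells.

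The keratins that chose the cells varied widely among them. Krt14 and Krt5 summed to 20.2 per 10000 in the lowest gated cell, 60.4 in the median cell and 667 in the highest. Krt14 averaged 12288 CPM in gated cells, 8882 CPM in suprabasal cells and 12.8 CPM in other injured cells. Krt5, its partner in the keratin filament, averaged 3499 CPM in gated cells, 987 CPM in suprabasal cells and 6.81 CPM in other injured cells. Since the rule used both, these levels are a description. Krt14, Krt15, Krt16 and Krt17 lie together in the type I keratin cluster, with Krt14 at chr11:100203162-100207548, Krt15 at chr11:100131758-100135928 and Krt16 at chr11:100246091-100248902, and Krt5 (chr15:101707070-101712898) and Krt6a (chr15:101689910-101694307) in the type II cluster, all in mm10; the 3′ kit reads the end of each transcript. The same keratins also occurred as scattered UMIs in cells that should lack them: Krt14 had a UMI in 99.5% of gated cells and in 23.4% of 1481 endothelial cells (Pecam1 and Cdh5 at 5 or more per 10000; median 24582 UMIs), and Krt5 in 94.0% of gated cells and 5.33% of endothelial cells.

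Among the other 2 genes named as markers, Krt15 (a keratin of follicle and basal stem cells) averaged 1335 CPM in gated cells, 30.1 CPM in suprabasal cells and 4.21 CPM in other injured cells. It was uneven: 61.8% of gated cells had a Krt15 UMI, against 13 of 65 suprabasal cells and 3.11% of endothelial cells, and the level per gated cell ran between 0 and 245 per 10000 with a median of 4.42. Epcam averaged 238 CPM in gated cells, 117 CPM in suprabasal cells and 2.5 CPM in other injured cells. Epcam thus marked keratinocytes of both kinds, and 74.2% of gated cells had a UMI of it, against 1.01% of endothelial cells.

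Beyond the keratins of the rule, wound keratins and hair follicle genes were found in different cells of the 172. Bounds set after the values were seen gave 35 cells with Krt6a and Krt16 at 20 or more per 10000, 99 cells below that bound with Sox9, Lhx2 and Lgr5 at 5 or more, and 38 remaining cells. They made up 28.8%, 34.2% and 16.1% of the UMIs of the gated cells, at a median of 54377, 17871 and 22515.5 UMIs per cell. Of the 172 cells, 3 met both bounds, 18 lay between 10 and 40 per 10000 of Krt6a and Krt16, and 36 lay between 2.5 and 10 of Sox9, Lhx2 and Lgr5. Because cells were assigned by these genes, their levels and those of all other genes in the same cells are given with no test.

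**Figure D1:**
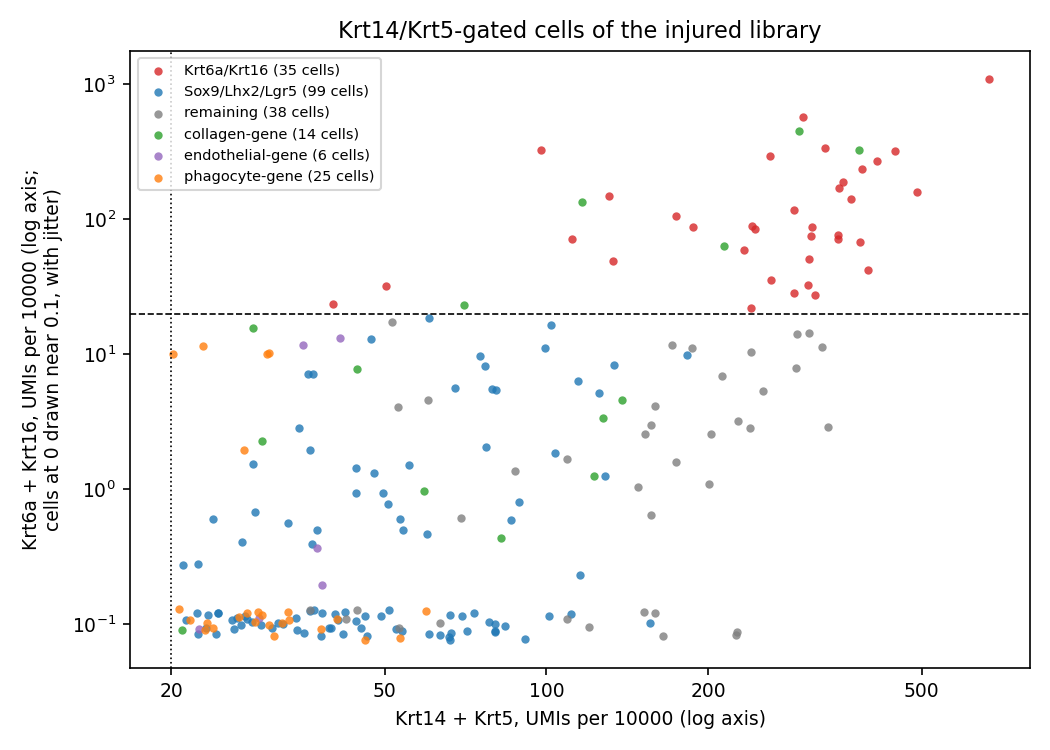
Each point is 1 of the 217 gated cells, with Krt14+Krt5 on the x axis and Krt6a+Krt16 on the y axis, both in UMIs per 10000 UMIs of the cell on log axes, coloured by subset; lines mark the bounds of 20. The 35 cells of the Krt6a/Krt16 subset lie mostly at high Krt14+Krt5 (median 307), and the 99 cells of the Sox9/Lhx2/Lgr5 subset mostly at low (median 45.9).

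The Krt6a/Krt16 subset carried the keratin signature of activated epidermis. Krt6a stood at 8.85 per 10000 in its lowest cell, 62.8 in the median cell and 520 in the highest, against a median of 0 and a maximum of 18.6 in the Sox9/Lhx2/Lgr5 subset and a median of 1.49 and a maximum of 17.2 in the remaining cells. The level averaged 8093 CPM in the Krt6a/Krt16 subset, 107 CPM in the Sox9/Lhx2/Lgr5 subset and 2792 CPM in suprabasal cells. Krt16, the partner of Krt6 in the filament, averaged 7002 CPM in the Krt6a/Krt16 subset, 8.15 CPM in the Sox9/Lhx2/Lgr5 subset and 4627 CPM in suprabasal cells. A single cell held 27.3% of the Krt16 UMIs of the Krt6a/Krt16 subset. The pair was high in both gated and suprabasal cells: gated over suprabasal the ratio of CPM was 1.21 for Krt6a (counting interval 1.18 to 1.24) and 0.671 for Krt16 (0.657 to 0.686). The 2 groups differ in their mix of cells with Xist and with Y-linked UMIs, described at the end. Within Y-only cells Krt16 averaged 6218 CPM in gated and 6071 CPM in suprabasal cells, and within Xist-only cells 204 CPM in gated and 212 CPM in suprabasal cells. Without the barcodes with genes of other cell types, Krt16 averaged 5135 CPM in Y-only and 218 CPM in Xist-only gated cells. Krt6a averaged 5880 CPM in gated and 3332 CPM in suprabasal cells within Y-only cells, and 658 CPM in gated and 419 CPM in suprabasal cells within Xist-only cells. Of 11 compared wound keratin and small proline-rich genes, 1 was more than 2-fold higher and 6 lower in gated than in suprabasal cells. Their median log2 ratio was -1.10. Of all compared genes, 12.6% were higher and 5.01% lower. Without the barcodes with genes of other cell types in both groups, 0 of 11 were higher and 9 lower (median -1.60), beside 17.6% and 5.30% of all genes. With those barcodes kept, the median was 0.30 within Xist-only cells (8 suprabasal cells). It was 1.06 against the 14 suprabasal cells at 500 or more per 10000 of Krt1 and Krt10. Krt6b, nearly identical to Krt6a in sequence so that reads may be split between them, averaged 3001 CPM in the Krt6a/Krt16 subset and 3.86 CPM in the Sox9/Lhx2/Lgr5 subset. Krt17, by contrast, averaged 2333 CPM in the Krt6a/Krt16 subset and 2142 CPM in the Sox9/Lhx2/Lgr5 subset, a ratio of 1.09 (1.05 to 1.13), and 570.5 CPM in the remaining cells.

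With these keratins went Fabp5, a fatty-acid binding protein of the epidermis, which stood at 3.12, 113 and 496 per 10000 in the lowest, median and highest cell of the Krt6a/Krt16 subset, against a median of 0.845 in the Sox9/Lhx2/Lgr5 subset. Its average was 18254 CPM in the Krt6a/Krt16 subset, 247 CPM in the Sox9/Lhx2/Lgr5 subset and 21788 CPM in suprabasal cells, so it too was a gene shared with the suprabasal cells. Cysteine protease inhibitors of the stefin family were part of the same group: Stfa1 averaged 1225 CPM in the Krt6a/Krt16 subset and 12.4 CPM in the Sox9/Lhx2/Lgr5 subset. Csta1 averaged 656 CPM in the Krt6a/Krt16 subset and 4.72 CPM in the Sox9/Lhx2/Lgr5 subset. The family is made of close copies, so single members are uncertain. Ly6d, a surface protein of keratinocytes, averaged 6231 CPM in the Krt6a/Krt16 subset and 281 CPM in the Sox9/Lhx2/Lgr5 subset. Gsta4, a glutathione transferase, had 643 UMIs in the Krt6a/Krt16 subset and 1 UMI in the Sox9/Lhx2/Lgr5 subset (327 CPM and 0.429 CPM; counting interval of the ratio 136.5 to 30199). S100a8, a calprotectin gene, averaged 742 CPM in the Krt6a/Krt16 subset and 8.58 CPM in the Sox9/Lhx2/Lgr5 subset, but 1 cell held 49.9% of its UMIs in the Krt6a/Krt16 subset. S100a9, the other calprotectin gene, averaged 790 CPM in the Krt6a/Krt16 subset and 9.43 CPM in the Sox9/Lhx2/Lgr5 subset, with 63.0% in 1 cell. Likewise 1 cell held 53.8% of Sprr1b and 71.5% of Sprr2h, small proline-rich cornified envelope proteins, in that subset.

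The Sox9/Lhx2/Lgr5 subset was the largest and carried genes of hair follicle stem cells. Lhx2, a transcription factor of follicle stem cells, had 0 UMIs in the Krt6a/Krt16 subset and averaged 493 CPM in the Sox9/Lhx2/Lgr5 subset, at least 323-fold lower in the Krt6a/Krt16 subset at a floor of 3 counts for the subset. Lgr5, the R-spondin receptor of cycling follicle stem cells, had 0 UMIs in the Krt6a/Krt16 subset and averaged 445 CPM in the Sox9/Lhx2/Lgr5 subset, at least 292-fold lower in the Krt6a/Krt16 subset. Sox9 averaged 83.5 CPM in the Krt6a/Krt16 subset and 632 CPM in the Sox9/Lhx2/Lgr5 subset. All 3 chose the subset. Krt15 did not, and it had 1 UMI in the Krt6a/Krt16 subset (0.509 CPM; 2.86% of cells) and 7029 UMIs in the Sox9/Lhx2/Lgr5 subset (3014 CPM; 96.0% of cells), a ratio with a counting interval of 4.28e-06 to 9.41e-04. Krt15 was also present in 78.9% of the remaining cells, at 1579 CPM, so its near absence set the Krt6a/Krt16 subset apart from both other subsets.

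Further genes were lower in the Krt6a/Krt16 subset than in the Sox9/Lhx2/Lgr5 subset and belong to signalling known in follicles. Ptch1, receptor and target of Hedgehog, averaged 11.2 CPM in the Krt6a/Krt16 subset and 374 CPM in the Sox9/Lhx2/Lgr5 subset. Gli1, a Hedgehog target, averaged 1.02 CPM in the Krt6a/Krt16 subset and 59.6 CPM in the Sox9/Lhx2/Lgr5 subset. Lgr6, an R-spondin receptor of follicle and epidermal stem cells, had 1 UMI in the Krt6a/Krt16 subset (0.509 CPM) and 410 UMIs in the Sox9/Lhx2/Lgr5 subset (176 CPM). Lrig1, a brake on EGF receptors in the upper follicle, averaged 50.9 CPM in the Krt6a/Krt16 subset and 394 CPM in the Sox9/Lhx2/Lgr5 subset. The immediate-early genes differed in the same direction: Fos averaged 101 CPM in the Krt6a/Krt16 subset, 1387 CPM in the Sox9/Lhx2/Lgr5 subset and 623 CPM in the remaining cells. Atf3, a stress-induced factor, averaged 7.13 CPM in the Krt6a/Krt16 subset, 374 CPM in the Sox9/Lhx2/Lgr5 subset and 181 CPM in the remaining cells. Other named genes of this side were Adamtsl1, Hmcn1, Pappa, Zbtb16, Enox1, Ror1, Sema3e, Shisa2, Npnt, Fras1, Bach2, Slc7a2, Fam13a and Slc16a7; 1 cell held 43.8% of the Adamtsl1 UMIs of the Sox9/Lhx2/Lgr5 subset.

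Over all genes, 747 of 9478 compared genes (7.88%) were more than 2-fold higher and 1639 (17.3%) more than 2-fold lower in the Krt6a/Krt16 subset than in the Sox9/Lhx2/Lgr5 subset, with a median log2 ratio of -0.20; here and below, a gene was compared if either group reached 10 CPM, and log2 ratios are of CPM + 5, which understates low genes. The wound keratin and small proline-rich list was on the high side in 8 of its 9 compared members, with a median log2 ratio of 5.16. Krt6a and Krt16 assigned the cells, and without them it was 6 of 7 (median 4.46). The antimicrobial and protease inhibitor list was high in 14 of 17 (median 3.26), the hypoxia and glycolysis list in 14 of 17 (1.88) and the desmosome list in 9 of 11 (1.62). On the low side were 13 of 17 members of the follicle and stem cell list (median -2.84), or 10 of 14 (-2.71) without Sox9, Lhx2 and Lgr5, which assigned the cells. Also on the low side were 12 of 21 of the AP-1 and early gene list (-1.38) and 8 of 16 of the S phase list (-1.01). The basal identity list was split, with 6 higher and 6 lower of 19 (median -0.04). Trp63 averaged 508 CPM in the Krt6a/Krt16 subset and 708 CPM in the Sox9/Lhx2/Lgr5 subset. Epcam averaged 162 CPM in the Krt6a/Krt16 subset and 346 CPM in the Sox9/Lhx2/Lgr5 subset.

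**Figure D2:**
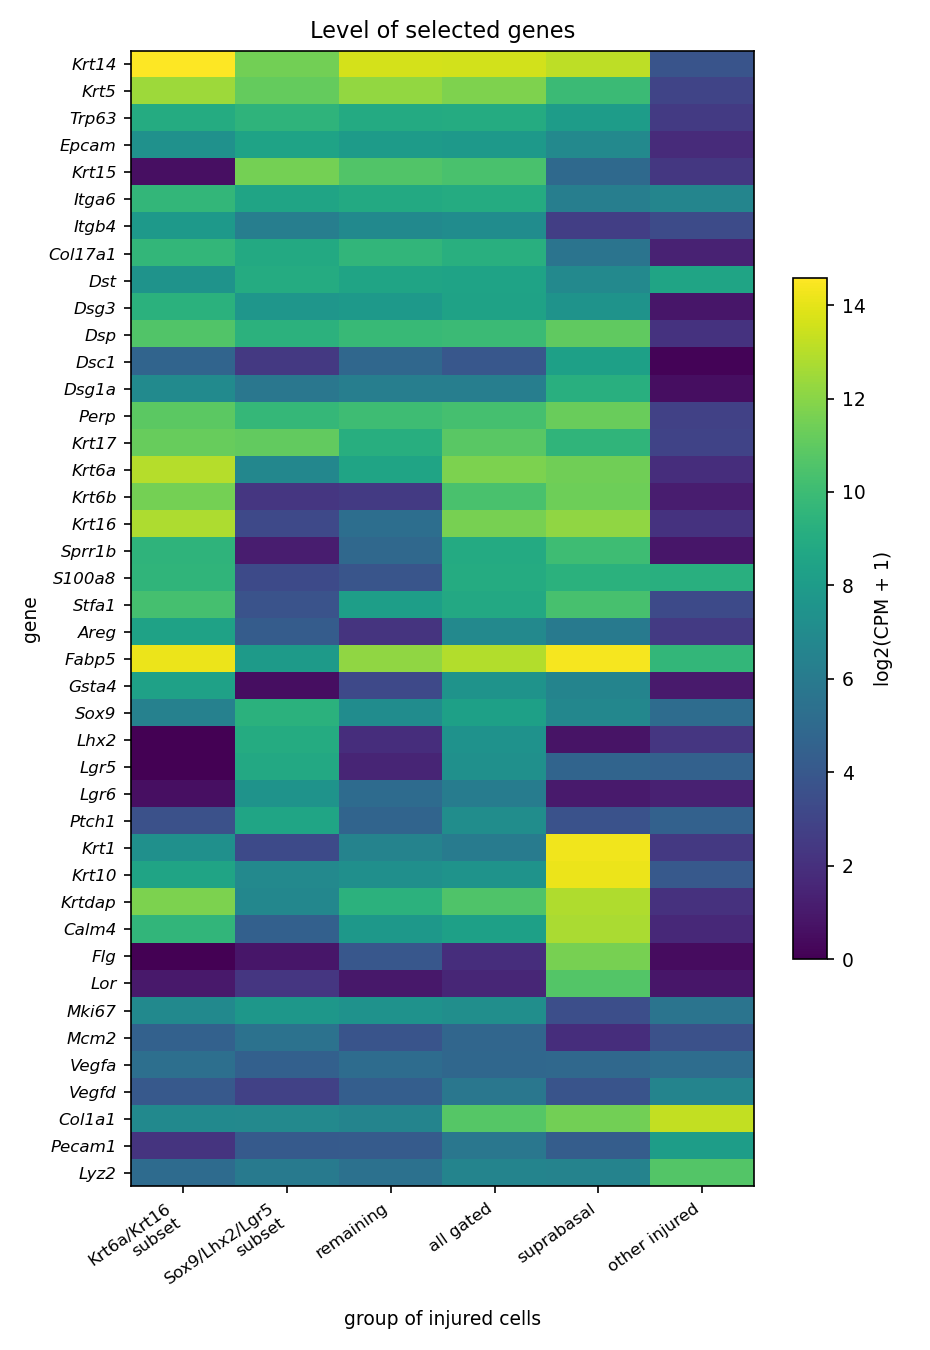
The heatmap gives the level, as log2(CPM + 1) of summed UMIs, of 42 genes (rows) in the Krt6a/Krt16 subset, the Sox9/Lhx2/Lgr5 subset, the remaining cells, all gated cells, suprabasal cells and other injured cells (columns). Krt15, Lhx2 and Lgr5 are near 0 in the Krt6a/Krt16 subset and high in the Sox9/Lhx2/Lgr5 subset, while Krt6a and Krt16 are high in the Krt6a/Krt16 subset and in suprabasal cells.

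The 38 remaining cells lay below both bounds without lacking the genes: 65.8% of them had a UMI of Krt6a, 36.8% of Krt16, 57.9% of Sox9 and 5.26% of Lhx2. They had Krt14 and Krt5 between 36.2 and 334 per 10000 (median 159), against a median of 307 in the Krt6a/Krt16 subset and 45.9 in the Sox9/Lhx2/Lgr5 subset. Col17a1, the hemidesmosome collagen, was at its highest median there, 8.39 per 10000, against 1.21 in the Krt6a/Krt16 subset, where the highest cell reached 45.8, and 4.73 in the Sox9/Lhx2/Lgr5 subset. Ccl27a, a chemokine of keratinocytes, averaged 258 CPM in the remaining cells, 23.4 CPM in the Krt6a/Krt16 subset and 95.6 CPM in the Sox9/Lhx2/Lgr5 subset. A single remaining cell held 96.1% of the Scd1 UMIs of the 38, a fatty-acid desaturase that is high in sebaceous gland, so the lipid genes of this subset describe that cell.

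Set against the other injured cells, mostly fibroblasts, leukocytes and endothelium, gated cells were higher by more than 2-fold in 913 of 10391 compared genes (8.79%) and lower in 1844 (17.7%), with a median log2 ratio of -0.00. Without the 45 barcodes with genes of other cell types, 1064 (10.1%) were higher and 2089 (19.9%) lower. The contrast was fixed by the choice of keratin-positive cells, so counts of list members in it are a description, to be read beside these shares of all genes. By the naming rule, the 25 genes with the highest log2 ratio were Krt6a, Krt16, Ly6d, Cstdc5, Krt6b, Lgals7, Krtdap, Krt17, Sfn, Krt15, Dsp, Perp, Col17a1, Aqp3, Cst6, Fxyd3, Sprr1b, Stfa3, Dmkn, Dsc3, Serpinb5, S100a14, Krt79, Defb6 and Dsg3. Ratios of CPM over other injured cells were 1223 for Krt6a (counting interval 1131 to 1324), 318 for Krt15 (298 to 339), 352 for Col17a1 (317 to 391) and 110 for Trp63 (103 to 118). A single cell held 61.2% of the gated UMIs of Cst6, a cysteine protease inhibitor, and 40.8% of those of Defb6, a beta-defensin.

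Of the lists, all 11 compared members of the desmosome list, all 9 of the wound keratin list, 17 of 18 of the basal identity list and 14 of 15 of the differentiation list were higher in gated cells than in other injured cells, at median log2 ratios of 3.86, 6.40, 3.66 and 3.08. The follicle and stem cell list was higher in 11 of 15 and lower in 2 (median 2.60), and the Wnt list higher in 10 of 13 (1.46). Lower were 12 of 20 alarmin, cytokine and chemokine genes (median -1.58), with 2 higher; Il1b averaged 6.01 CPM in gated cells and 375 CPM in other injured cells. Il24, a cytokine of wound keratinocytes, went the other way, at 44.3 CPM in gated cells and 0.0631 CPM in other injured cells. The mesenchymal transition list was lower in 11 of 12 (median -2.29), and the 1 higher gene was Snai2, a zinc finger repressor, at 51.2 CPM in gated cells, 11.1 CPM in suprabasal cells and 16.7 CPM in other injured cells.

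**Figure D3:**
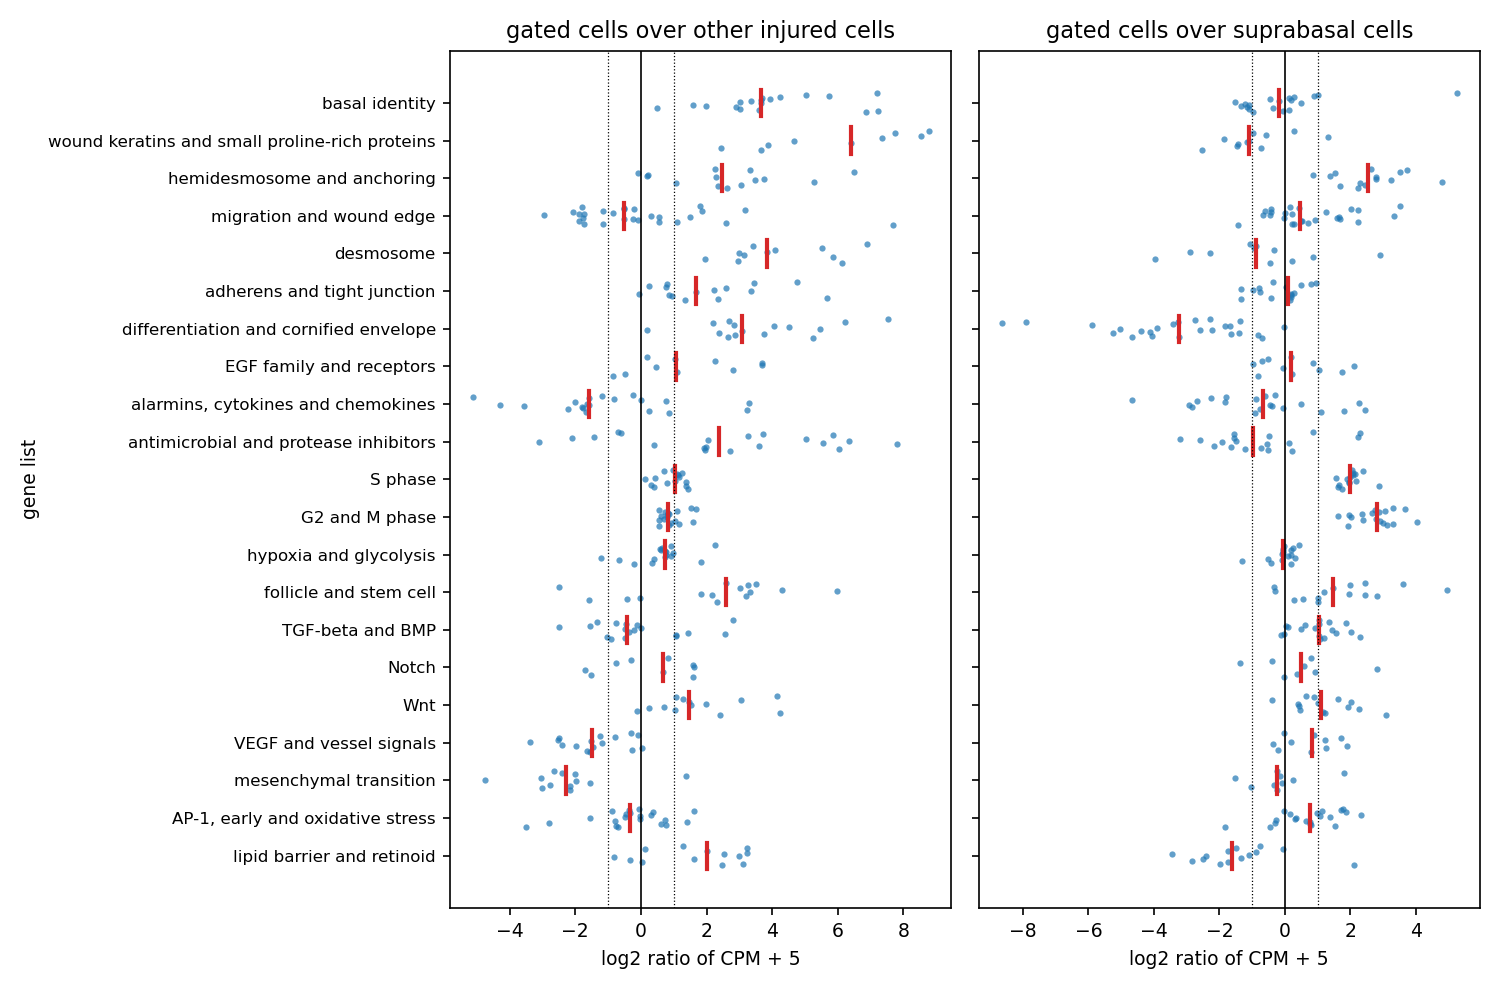
Each point is 1 compared member of a gene list, placed by its log2 ratio of CPM + 5 in gated cells over other injured cells (one panel) and over suprabasal cells (the other); red bars are list medians and dotted lines mark 2-fold. Wound keratins stand high over other injured cells (median 6.40) and at a median of -1.10 over suprabasal cells (above 0 within Xist-only cells and against the cells highest in Krt1 and Krt10), while the hemidesmosome list stands above 0 in both (2.49 and 2.55).

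Against the suprabasal cells, the gated cells were higher by more than 2-fold in 1179 of 9382 compared genes (12.6%) and lower in 470 (5.01%), with a median log2 ratio of 0.28; median-of-ratios scaling gave 847 higher and 576 lower, and leaving out the barcodes with genes of other cell types in both groups gave 1609 (17.6%) higher and 486 (5.30%) lower. Again the rule used this contrast. On the high side stood attachment to the basement membrane: 13 of 14 hemidesmosome and anchoring genes, with 0 lower, at a median log2 ratio of 2.55. Itga6 and Itgb4 encode the hemidesmosome integrin. Itgb4 averaged 135 CPM in gated cells and 5.54 CPM in suprabasal cells, a ratio of 24.3 (14.9 to 42.7). Itga6 averaged 497 CPM in gated cells and 75.5 CPM in suprabasal cells. Col17a1 averaged 591 CPM in gated cells and 47.1 CPM in suprabasal cells, a ratio of 12.5 (10.6 to 14.99).

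The 2 main subsets shared this attachment programme in part. Summed over cells, the list stood at 3811 CPM in the Krt6a/Krt16 subset, 2221 CPM in the Sox9/Lhx2/Lgr5 subset and 2637 CPM in the remaining cells. The median over cells ran the other way, at 11.5, 23.3 and 28.4 per 10000, so the typical Krt6a/Krt16 cell was the lowest. Within the gated cells Itgb4 averaged 235 CPM in the Krt6a/Krt16 subset, 73.3 CPM in the Sox9/Lhx2/Lgr5 subset and 122 CPM in the remaining cells. Lama5, a laminin chain of the epidermal and follicle basement membrane, went the other way, at 17.8 CPM in the Krt6a/Krt16 subset and 79.3 CPM in the Sox9/Lhx2/Lgr5 subset. Dst, whose epithelial form links keratin to the hemidesmosome, averaged 179 CPM in the Krt6a/Krt16 subset and 496 CPM in the Sox9/Lhx2/Lgr5 subset; it is expressed in many cell types, and averaged 369 CPM in other injured cells. Set directly against the 53 suprabasal cells without genes of other cell types, the Krt6a/Krt16 subset alone was higher in 12 of 12 compared hemidesmosome genes (median 3.03), beside 940 of 8643 genes (10.9%) higher and 487 (5.63%) lower over all.

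The suprabasal side held the differentiation programme. None of the 25 compared differentiation and cornified envelope genes was more than 2-fold higher in gated than in suprabasal cells and 22 were lower, at a median log2 ratio of -3.23. Over all genes 12.6% were higher and 5.01% lower. Flg, which encodes filaggrin, averaged 2.79 CPM in gated cells and 3123 CPM in suprabasal cells. Lor, which encodes loricrin, averaged 1.91 CPM in gated cells and 1651 CPM in suprabasal cells. Most of these suprabasal UMIs came from few cells: 1 cell held 41.9% of Flg, 67.0% of Lor and 72.9% of Hrnr. Earlier differentiation genes were spread more evenly and reached into the gated cells. Krtdap, a secreted protein of differentiating keratinocytes, averaged 1518 CPM in gated cells, 7380 CPM in suprabasal cells and 3.17 CPM in other injured cells. Within the gated cells it averaged 3376 CPM in the Krt6a/Krt16 subset and 108 CPM in the Sox9/Lhx2/Lgr5 subset. The 15 named genes on the suprabasal side were Flg, Lor, Wfdc21, Hrnr, Hal, Asprv1, Casp14, Serpinb12, Il1f6, Klk5, Klk6, Calm4, Nccrp1, Slurp1 and Wfdc12. Among them Casp14, the protease that processes filaggrin, averaged 7.48 CPM in gated cells and 401 CPM in suprabasal cells.

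Desmosome genes differed in both directions. Of 11 compared, 1 was more than 2-fold higher, no larger a share than the 12.6% of all genes, and 4 were lower in gated than in suprabasal cells, against 5.01% of all genes (median -0.89). Without the barcodes with genes of other cell types, 6 were lower (median -1.07), against 5.30% of all genes. Dsg2, a desmoglein of simple and basal epithelium, averaged 42.8 CPM in gated cells and 1.39 CPM in suprabasal cells, a ratio of 30.9 (11.9 to 114). Dsg1a and Dsc1 encode cadherins of the upper layers. Dsg1a averaged 74.2 CPM in gated cells and 585 CPM in suprabasal cells, and Dsc1 averaged 14.8 CPM in gated cells and 307 CPM in suprabasal cells. Dsp, the desmosome plaque protein, averaged 978 CPM in gated cells and 2058 CPM in suprabasal cells. Dsg3, the basal desmoglein, averaged 335 CPM in gated cells and 181 CPM in suprabasal cells. Adherens and tight junction genes differed less, with 0 higher and 2 lower of 16 (median 0.10); Cdh1, E-cadherin, averaged 199 CPM in gated cells and 260 CPM in suprabasal cells.

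Other named genes higher in gated than in suprabasal cells were Krt15, Lhx2, Cenpf, Pclaf, Hist1h1b, Hmcn1, Npnt, Top2a, Lgr6, Itga2, Nusap1 and Slco2a1. Part were follicle genes. Krt15 had a ratio of 44.3 (35.9 to 55.4). Lhx2 had 1169 UMIs in gated cells and 2 UMIs in suprabasal cells, a ratio of 248 (68.4 to 2047). Npnt, an integrin ligand of the follicle basement membrane, had 413 UMIs in gated cells and 0 in suprabasal cells and was at least 58.3-fold higher at a floor of 3 counts. Part were genes of dividing cells, Cenpf, Pclaf, Top2a and Nusap1. Itga2, a collagen-binding integrin, averaged 59.97 CPM in gated cells and 0.692 CPM in suprabasal cells, from 2 UMIs in suprabasal cells, with a ratio of 86.6 (23.8 to 718). Unlike Lhx2 it was present in the Krt6a/Krt16 subset, at 86.0 CPM, as well as in the Sox9/Lhx2/Lgr5 subset, at 50.2 CPM.

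Upstream sequence was read for some named genes, together with Krt5, to show how the letters of 2 known promoter elements lie in them. Krtdap, Sprr1b and Serpinb5 were named as higher in gated than in other injured cells, and Lor and Flg on the suprabasal side. No gene named as higher in gated than in suprabasal cells, or on the Sox9/Lhx2/Lgr5 side, is shown. The 6 windows below are the 250 bases before the RefSeq start in GRCm38.p6: Krt5 at chr15:101712906-101713155 (minus strand), Krtdap at chr7:30787655-30787904 (plus), Sprr1b at chr3:92438780-92439029 (minus), Serpinb5, a serpin of epithelia, at chr1:106860925-106861174 (plus), Lor at chr3:92083143-92083392 (minus) and Flg at chr3:93273296-93273545 (plus). Capitals mark TGANTCA, the letters bound by AP-1 factors (its own reverse complement except for the middle base, so found on both strands), and TATAAA, the TATA box. TATAAA too was sought on both strands, and every match marked here lies on the strand of the gene.
Krt5: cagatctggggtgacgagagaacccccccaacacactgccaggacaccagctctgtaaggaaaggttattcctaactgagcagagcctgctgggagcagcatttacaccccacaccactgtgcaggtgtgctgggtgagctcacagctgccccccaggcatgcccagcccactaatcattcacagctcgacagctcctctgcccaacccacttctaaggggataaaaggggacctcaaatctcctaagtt
Krtdap: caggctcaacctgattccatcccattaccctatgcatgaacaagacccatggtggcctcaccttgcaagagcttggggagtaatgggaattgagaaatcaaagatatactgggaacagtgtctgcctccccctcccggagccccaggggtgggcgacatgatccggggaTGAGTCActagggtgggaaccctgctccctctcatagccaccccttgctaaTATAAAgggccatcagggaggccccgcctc
Sprr1b: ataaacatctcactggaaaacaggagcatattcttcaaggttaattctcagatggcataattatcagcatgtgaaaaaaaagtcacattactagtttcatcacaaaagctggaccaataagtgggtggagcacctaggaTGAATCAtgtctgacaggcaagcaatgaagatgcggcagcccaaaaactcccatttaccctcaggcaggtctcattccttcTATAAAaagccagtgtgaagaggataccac
Serpinb5: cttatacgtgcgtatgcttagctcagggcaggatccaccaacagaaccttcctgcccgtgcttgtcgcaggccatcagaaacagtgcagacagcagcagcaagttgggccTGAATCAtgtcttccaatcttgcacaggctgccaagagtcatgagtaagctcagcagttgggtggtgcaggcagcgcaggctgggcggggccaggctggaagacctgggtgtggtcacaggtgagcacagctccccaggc
Lor: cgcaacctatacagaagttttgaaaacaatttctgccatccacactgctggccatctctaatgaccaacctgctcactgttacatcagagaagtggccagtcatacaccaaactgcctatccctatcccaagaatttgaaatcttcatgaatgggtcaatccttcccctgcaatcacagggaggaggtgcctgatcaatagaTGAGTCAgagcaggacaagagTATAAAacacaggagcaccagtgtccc
Flg: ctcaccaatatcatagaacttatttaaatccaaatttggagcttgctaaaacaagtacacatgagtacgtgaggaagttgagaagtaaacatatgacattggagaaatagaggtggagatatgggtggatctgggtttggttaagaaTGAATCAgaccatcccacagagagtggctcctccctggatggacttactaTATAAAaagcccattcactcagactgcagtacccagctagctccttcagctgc

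In these windows TGANTCA began 81 bases before the start in Krtdap, 111 in Sprr1b, 140 in Serpinb5, 48 in Lor and 103 in Flg, and was not found in Krt5. Every named gene shown held it, so the windows do not stand for the named sets. TATAAA began 30 bases before the start in Krtdap and Sprr1b, 27 in Lor and 53 in Flg. Over all 32851 promoters in the RefSeq table, 6.75% held TGANTCA and 12.4% TATAAA, each counted on either strand. Of the 15 named genes lower in gated than in suprabasal cells, 11 had a promoter in the table and 4 held TGANTCA (Flg, Hal, Lor and Serpinb12), 36.4%; of the 15 higher, 11 had a promoter and 0 held it. Of the 20 named genes higher in the Krt6a/Krt16 subset than in the Sox9/Lhx2/Lgr5 subset, 3 of 13 held it, and of the 20 lower, 0 of 12. A match is a description of letters and says nothing of a factor's binding. Krt15, Krt6a, Krt16, Krt17, Lgr5, Sox9 and Krt1 were not matched.

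Cells of the upper layers still carried basal keratins, so the border between the groups was gradual in some genes and steep in others. Of the 65 suprabasal cells, 32 had Krt14 and Krt5 at 20 or more per 10000 and 21 lay in the Krt6a and Krt16 range of the Krt6a/Krt16 subset; 12 carried phagocyte, collagen or endothelial genes. With such barcodes left out, keratin-positive cells were ordered by Krt1 and Krt10 in bins of below 1, 1 to 5, 5 to 20, 20 to 50, 50 to 200, 200 to 1000 and over 1000 per 10000, which held 125, 32, 9, 6, 10, 36 and 3 cells, so the bins of 9, 6, 10 and 3 cells are thin. The hemidesmosome list summed to 3300 CPM in the lowest bin, 2585 CPM in the next and 222 CPM in the bin of 36 cells. The G2 and M phase list summed to 1689, 790 and 42.2 CPM in those 3 bins. The differentiation list summed to 3029, 1989 and 28660 CPM in the same bins. In the thin bins between, the differentiation list lay between 7747 and 9176 CPM and the hemidesmosome list between 844 and 1179 CPM. The mix of cells changed too. In the bins of 125, 32 and 36 cells, 76, 20 and 0 met the Sox9/Lhx2/Lgr5 rule and 24, 2 and 13 the Krt6a/Krt16 rule. Xist-only cells numbered 72, 22 and 6, and Y-only cells 44, 9 and 22. What this mix adds to the list levels was not tested.

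**Figure D4:**
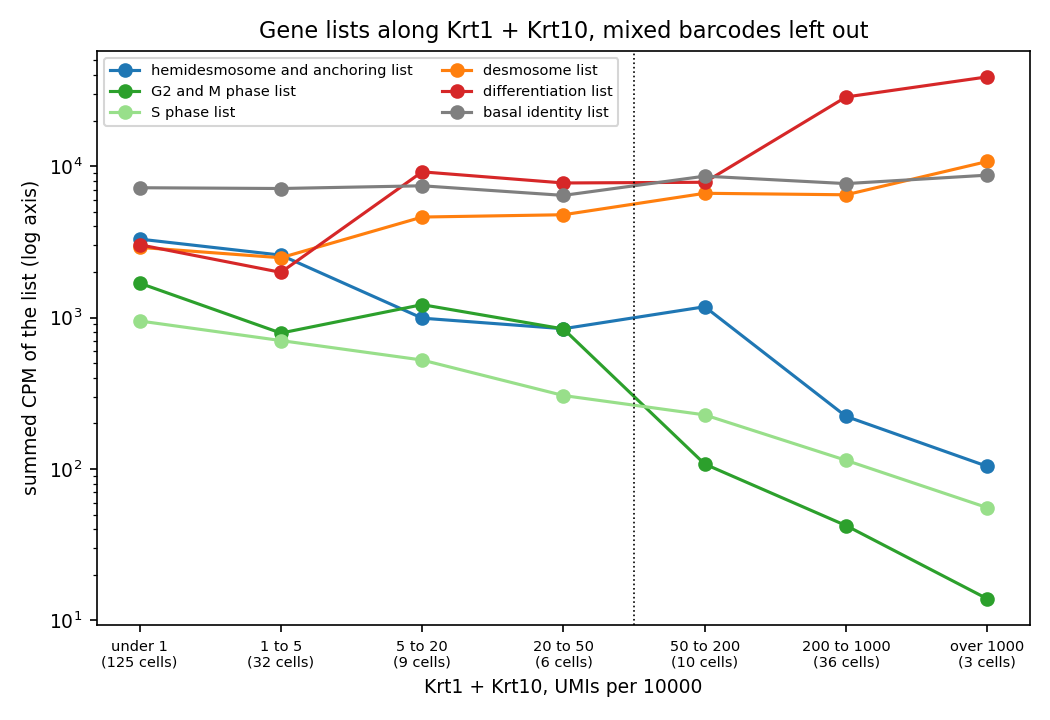
Summed level in CPM (log axis) of 6 gene lists along bins of Krt1+Krt10 in UMIs per 10000, among keratin-positive cells without phagocyte, collagen or endothelial genes (125, 32, 9, 6, 10, 36 and 3 cells per bin); the dotted line marks the bound of 50 between gated and suprabasal cells. The G2 and M phase list stands at 1689 CPM in the lowest bin and 42.2 CPM in the bin of 200 to 1000, and the differentiation list at 3029 and 28660 CPM. The mix of subsets and of Xist-only and Y-only cells also differs between the bins.

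Follicle genes were present on both sides of the Krt14 and Krt5 bound. The 20 gated cells with Krt14 and Krt5 at 20 to 25 per 10000 had Trp63 at 406 CPM and Lhx2 at 667 CPM. The 11 cells at 15 to 20 had Trp63 at 469 CPM and Lhx2 at 684 CPM. At the other bound, the 4 cells with Krt1 and Krt10 at 25 to 50 had Trp63 at 521 CPM and Krt6a at 3836 CPM. The 9 suprabasal cells at 50 to 100 had Trp63 at 320 CPM and Krt6a at 1107 CPM. The 11 gated cells with 1 Ptprc UMI had the phagocyte gene Lyz2 at 182 CPM, and the 14 cells with 2 or more had 1016 CPM.

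Transcripts of dividing cells were more frequent in gated than in suprabasal cells at equal depth. After thinning each cell to 5000 UMIs, 58 of 186 gated cells (31.2%, 24.6 to 38.4; 31 shallower cells left out) had 2 or more UMIs of the G2 and M phase list, against 6 of 56 suprabasal cells (10.7%) and 264 of 1296 endothelial cells (20.4%). Unthinned, the shares lay close together, at 49.8% of gated cells, 44.6% of suprabasal cells and 47.3% of endothelial cells, with suprabasal cells the deepest of the 3. By subset, again thinned to 5000 UMIs, it was 11 of 34 cells (32.4%) in the Krt6a/Krt16 subset and 26 of 97 (26.8%) in the Sox9/Lhx2/Lgr5 subset. In the remaining cells it was 11 of 37 (29.7%). Summed over cells, all 18 genes of the G2 and M list were more than 2-fold higher in gated than in suprabasal cells (median log2 ratio 2.83) and all 15 compared genes of the S phase list (1.98). Over all genes 12.6% were higher. Mki67, the proliferation antigen, averaged 146 CPM in gated cells, 10.4 CPM in suprabasal cells and 47.5 CPM in other injured cells.

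Cells with and without these transcripts differed in the average level of some marker genes of their subset. For this the cells were thinned once more, in 1 random draw over all 172 cells, which put 4 cells of the Krt6a/Krt16 subset and 3 of the Sox9/Lhx2/Lgr5 subset in another state than the draws behind the shares above. In the Sox9/Lhx2/Lgr5 subset, 27 cells with G2 and M transcripts averaged 1622 CPM of Krt15 and the 70 without 4141 CPM (1506 CPM in 26 cells and 4213 CPM in 71 cells by the earlier draw). Lgr5 averaged 634 CPM in the cells with and 293 CPM in the cells without, and Ptch1 590 CPM with and 199 CPM without. In the Krt6a/Krt16 subset, 15 cells with such transcripts averaged 4644 CPM of Krt16 and the 19 without 9603 CPM (5413 CPM in 11 cells and 8067 CPM in 23 cells by the earlier draw). A single cell held a large share of the Krt16 UMIs of this subset, as given above. The averages without that cell were not taken, so the difference may rest on it. Thinning to 5000 UMIs decided the state of each cell and cells of 1 library are no replicates, so these are descriptions.

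The EGF family and receptor list holds growth factors, their receptors, Errfi1 and Adam17. It was higher in gated than in other injured cells in 6 of 10 compared members, with 0 lower (median log2 ratio 1.07). Of all genes 8.79% were higher and 17.7% lower. Against suprabasal cells 3 of 11 were higher, beside 12.6% of all genes. Areg, amphiregulin, averaged 117 CPM in gated cells, 62.7 CPM in suprabasal cells and 4.48 CPM in other injured cells. It belonged to the Krt6a/Krt16 subset: 338 CPM there, against 17.6 CPM in the Sox9/Lhx2/Lgr5 subset, a ratio of 19.2 (14.0 to 27.0). Unthinned, a UMI was found in 65.7% of cells of the Krt6a/Krt16 subset, the deeper of the 2, against 19.2%, and in 0.405% of endothelial cells. Thinned to 5000 UMIs, Areg was found in 41.2% of the Krt6a/Krt16 and 10.3% of the Sox9/Lhx2/Lgr5 subset. Per cell it was uneven, with a median of 1.33 and a maximum of 26.2 per 10000 in the Krt6a/Krt16 subset. Epgn, epigen, averaged 144 CPM in the Krt6a/Krt16 subset and 10.7 CPM in the Sox9/Lhx2/Lgr5 subset. Nrg1, neuregulin, averaged 355 CPM in the Krt6a/Krt16 subset and 113 CPM in the Sox9/Lhx2/Lgr5 subset. Gjb2, the gap junction protein connexin 26, averaged 654 CPM in the Krt6a/Krt16 subset, 37.3 CPM in the Sox9/Lhx2/Lgr5 subset and 406 CPM in suprabasal cells.

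Integrins, proteases and matrix genes of migrating keratinocytes gave a mixed picture. Of the migration and wound edge list, 7 of 27 compared members were more than 2-fold higher and 10 lower in gated than in other injured cells (median -0.50), beside 8.79% and 17.7% of all genes. Against suprabasal cells 9 of 26 were higher and 1 lower (0.47), beside 12.6% and 5.01%. Itgb6, the epithelial integrin chain that activates TGF-beta, averaged 63.3 CPM in gated cells, 9.69 CPM in suprabasal cells and 2.60 CPM in other injured cells, at similar levels in the Krt6a/Krt16 subset (85.5 CPM) and the Sox9/Lhx2/Lgr5 subset (75.03 CPM). Itgb1, the common integrin beta chain, averaged 446 CPM in gated cells, 107 CPM in suprabasal cells and 522 CPM in other injured cells. Genes that fibroblasts and leukocytes also make were lower in gated than in other injured cells, among them Fn1, fibronectin, at 455 CPM in gated cells and 1922 CPM in other injured cells; in the Krt6a/Krt16 subset Fn1 stood at 55.99 CPM. Mmp9, a gelatinase, averaged 69.2 CPM in gated cells and 55.5 CPM in other injured cells, but 58.7% of the gated UMIs lay in 1 cell.

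Genes of hypoxia and glycolysis were high in the Krt6a/Krt16 subset, as counted above. Gated over other injured cells, 2 of 17 were more than 2-fold higher and 1 lower (median 0.73), beside 8.79% and 17.7% of all genes, and gated over suprabasal cells 0 of 16 higher and 1 lower (-0.05), beside 12.6% and 5.01%. Slc2a1, the glucose transporter GLUT1, averaged 375 CPM in the Krt6a/Krt16 subset, 67.7 CPM in the Sox9/Lhx2/Lgr5 subset and 258 CPM in the remaining cells. Ldha, lactate dehydrogenase, averaged 1154 CPM in the Krt6a/Krt16 subset and 225 CPM in the Sox9/Lhx2/Lgr5 subset. Slc16a3, the lactate exporter MCT4, had 246 UMIs in the Krt6a/Krt16 subset (125 CPM) and 2 UMIs in the Sox9/Lhx2/Lgr5 subset (0.858 CPM), a ratio of 146 (40.0 to 1213).

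Cytokines, chemokines and alarmins were also compared with suprabasal cells. In gated cells 4 of 20 were more than 2-fold higher and 7 lower (median -0.68), beside 12.6% and 5.01% of all genes. Without the barcodes with genes of other cell types, 4 of 20 were higher and 11 lower (-1.09), beside 17.6% and 5.30%. Higher in gated cells were Cxcl14 and Ccl27a, chemokines that skin makes at rest. Cxcl14 averaged 220 CPM in gated cells, 59.2 CPM in suprabasal cells and 183 CPM in other injured cells. Ccl27a averaged 96.2 CPM in gated cells, 13.5 CPM in suprabasal cells and 5.74 CPM in other injured cells. Both were lower in the Krt6a/Krt16 subset than in the Sox9/Lhx2/Lgr5 subset, with Cxcl14 at 77.9 CPM in the Krt6a/Krt16 subset and 402 CPM in the Sox9/Lhx2/Lgr5 subset. Il24 was higher in gated cells too, at 94.2 CPM in the Krt6a/Krt16 subset and 10.3 CPM in the Sox9/Lhx2/Lgr5 subset, against 5.19 CPM in suprabasal cells. Il33, an alarmin stored in the nucleus, averaged 29.9 CPM in gated cells and 161 CPM in suprabasal cells. Il1f6, which encodes interleukin 36 alpha, had 0 UMIs in gated cells and 351 in suprabasal cells, 77.5% of them in 1 cell.

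Host defence genes set the Krt6a/Krt16 subset apart as well, with the suprabasal cells again higher in many. Of 20 compared antimicrobial and protease inhibitor genes, 14 were more than 2-fold higher and 3 lower in gated than in other injured cells (median 2.38). Over all genes these shares were 8.79% and 17.7%. Against suprabasal cells 2 of 18 were higher and 9 lower (-0.97), beside 12.6% and 5.01% of all genes. Cstdc5, a stefin-like inhibitor, averaged 6464 CPM in the Krt6a/Krt16 subset, 223 CPM in the Sox9/Lhx2/Lgr5 subset and 10032 CPM in suprabasal cells. Serpinb2, the plasminogen activator inhibitor of keratinocytes, averaged 127 CPM in the Krt6a/Krt16 subset, 12.4 CPM in the Sox9/Lhx2/Lgr5 subset and 119.8 CPM in suprabasal cells. Slpi, a secreted protease inhibitor, averaged 91.1 CPM in gated cells and 14.5 CPM in suprabasal cells, with 62% of the UMIs of the Krt6a/Krt16 subset in 1 cell. Defb14, a beta-defensin, had 295 UMIs in gated cells (43.3 CPM) and 15 in suprabasal cells (5.19 CPM), but 1 cell held 77.6% of those in the Krt6a/Krt16 subset.

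Developmental signalling genes divided by subset. The Wnt list here also holds the Hedgehog receptor gene Ptch1. Of its 14 compared members, 8 were more than 2-fold higher and 0 lower in gated than in suprabasal cells (median 1.10). Over all genes these shares were 12.6% and 5.01%. Between the subsets 5 of 15 were higher and 8 lower in the Krt6a/Krt16 subset (-1.18), beside 7.88% and 17.3% of all genes. The ligand Wnt4 averaged 236 CPM in the Krt6a/Krt16 subset, 68.6 CPM in the Sox9/Lhx2/Lgr5 subset and 309 CPM in the remaining cells. Wnt5a averaged 129 CPM in the Krt6a/Krt16 subset, 30.01 CPM in the Sox9/Lhx2/Lgr5 subset and 36.4 CPM in the remaining cells. The Wnt-responsive transcription factor genes went the other way. Tcf7l1 averaged 25.5 CPM in the Krt6a/Krt16 subset and 188 CPM in the Sox9/Lhx2/Lgr5 subset. Lef1 had 0 UMIs in the Krt6a/Krt16 subset and averaged 40.3 CPM in the Sox9/Lhx2/Lgr5 subset. Of the TGF-beta and BMP list, 11 of 18 were higher and 0 lower in gated than in suprabasal cells (median 1.04), beside the same 12.6% and 5.01%. In the Krt6a/Krt16 subset 2 of 18 were higher and 8 lower than in the Sox9/Lhx2/Lgr5 subset (-0.75), beside 7.88% and 17.3%. Id1, a BMP target, averaged 89.6 CPM in the Krt6a/Krt16 subset and 259.8 CPM in the Sox9/Lhx2/Lgr5 subset. Id3, another, averaged 41.2 CPM in the Krt6a/Krt16 subset and 359.7 CPM in the Sox9/Lhx2/Lgr5 subset. Tgfbi, a matrix protein induced by TGF-beta, was higher in the Krt6a/Krt16 subset, at 396 CPM there and 82.3 CPM in the Sox9/Lhx2/Lgr5 subset. Of 8 Notch genes, 1 was higher and 1 lower in gated than in suprabasal cells (median 0.49), beside 12.6% and 5.01% of all genes. The ligand gene Jag2 averaged 37.1 CPM in gated cells and 1.04 CPM in suprabasal cells. The receptor gene Notch3 averaged 27.0 CPM in gated cells and 77.5 CPM in suprabasal cells.

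Lipid barrier genes were mostly lower in gated than in suprabasal cells. Of 14 compared with suprabasal cells, 10 were more than 2-fold lower and 1 higher in gated cells (median -1.61), beside 5.01% and 12.6% of all genes. In the Krt6a/Krt16 subset 10 of 13 were higher and 2 lower than in the Sox9/Lhx2/Lgr5 subset (1.61), beside 7.88% and 17.3%. Elovl4, which makes the very long acyl chains of barrier ceramides, averaged 56.0 CPM in gated cells and 655 CPM in suprabasal cells. Abca12, the transporter that loads lamellar granules, averaged 35.04 CPM in gated cells and 207 CPM in suprabasal cells. The gene higher in gated cells was Aldh3a1, an aldehyde dehydrogenase, at 23.9 CPM in gated cells and 1.73 CPM in suprabasal cells. AP-1, early and oxidative stress genes were higher in 8 of 21 and lower in 1 in gated than in suprabasal cells (median 0.77), beside 12.6% and 5.01% of all genes, with Fos at 694 CPM in gated cells, 199 CPM in suprabasal cells and 717 CPM in other injured cells.

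The transgene target, Vegfd, whose reads may come from the transgene or the native gene, averaged 53.2 CPM in gated cells, 12.8 CPM in suprabasal cells and 95.8 CPM in other injured cells, and 46.3% of the gated UMIs lay in 1 collagen-gene barcode. It averaged 15.8 CPM in the Krt6a/Krt16 subset, 6.003 CPM in the Sox9/Lhx2/Lgr5 subset and 19.1 CPM in the remaining cells, beside 9.18 CPM in endothelial cells and 199 CPM in fibroblasts (collagen genes at 100 or more per 10000). Hoxa11, whose locus drives the Cre, had 10 UMIs in gated cells (1.47 CPM) and averaged 7.27 CPM in other injured cells. Of the 16 compared genes of the VEGF and vessel list, 0 were more than 2-fold higher and 11 lower in gated than in other injured cells (median -1.49), beside 8.79% and 17.7% of all genes. Vegfa itself averaged 28.6 CPM in gated cells, 29.1 CPM in suprabasal cells and 36.6 CPM in other injured cells.

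Since male and female mice were used, UMIs of Xist and of 4 Y-linked genes give the one split by animal that the files allow, and the subsets differed in it. In the Krt6a/Krt16 subset 6 cells had Xist only and 24 Y-linked UMIs only. In the Sox9/Lhx2/Lgr5 subset 81 cells had Xist only and 14 Y-linked only. Among the remaining cells 11 had Xist only and 24 Y-linked only. Among the suprabasal cells these were 8 and 36, and among the other injured cells 3500 and 3419. Both kinds of UMI occurred in 4 cells of the Krt6a/Krt16 subset, in 7 of the 14 collagen-gene barcodes and in 1006 other injured cells. The subset of a cell and the animal it came from can therefore not be told apart in full, and the levels were also taken within each kind of cell.

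Krt15 of the Sox9/Lhx2/Lgr5 subset was present in both kinds of cell. In the Sox9/Lhx2/Lgr5 subset Krt15 averaged 2946 CPM in the 81 Xist-only cells and 3449 CPM in the 14 Y-only cells, while Lhx2 averaged 543 CPM in the Xist-only and 166 CPM in the Y-only cells. In the Krt6a/Krt16 subset Krt6a averaged 5727 CPM in the 6 Xist-only cells and 9012 CPM in the 24 Y-only cells. Krt16 averaged 1931 CPM in the Xist-only and 8819 CPM in the Y-only cells. Other levels of that subset rested on its Y-only cells. Itgb4 averaged 0 CPM in the Xist-only and 260 CPM in the Y-only cells. Areg averaged 51.6 CPM in the Xist-only and 444 CPM in the Y-only cells. Mki67 averaged 3.69 CPM in the Xist-only and 154 CPM in the Y-only cells.

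**Figure D5:**
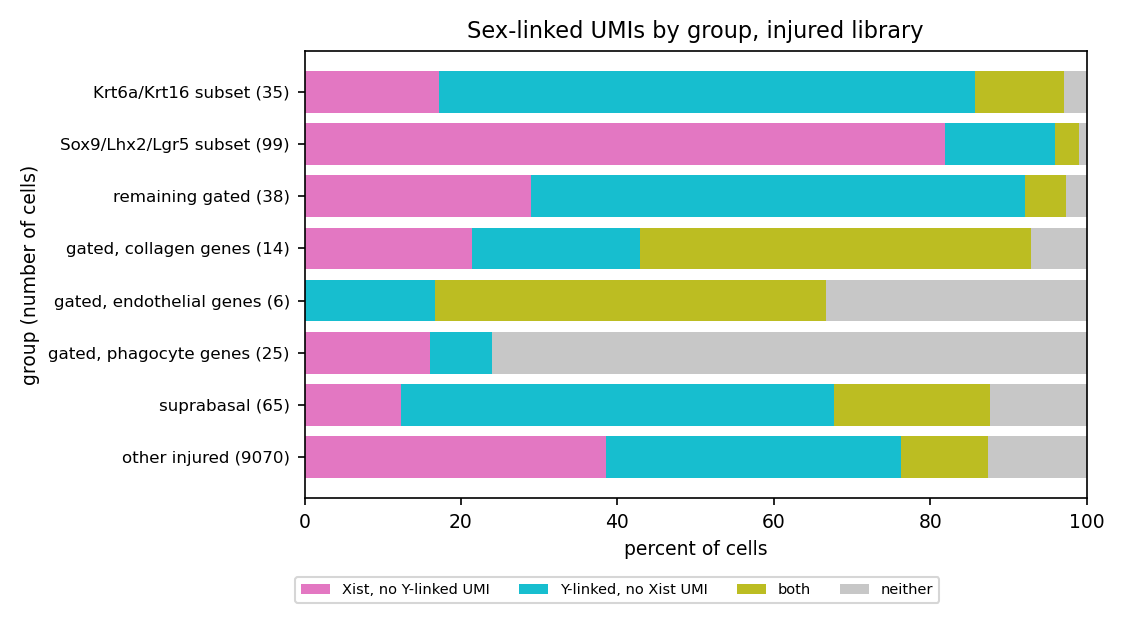
Stacked bars give the percent of cells with Xist UMIs only, Y-linked UMIs only, both or neither in 8 groups of cells of the injured library. The Sox9/Lhx2/Lgr5 subset is mostly Xist only (81 of 99 cells), and the Krt6a/Krt16 subset (24 of 35) and the suprabasal cells (36 of 65) are mostly Y only.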

How the data were processed

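Single-cell 3′ libraries were made with the v2 droplet kit, per the labels' protocols. The deposited files hold UMI counts per gene and barcode, made by the authors with Cell Ranger 5.0.1 on mm10, per the submitters' processing notes; the sources used here give neither the annotation release nor how barcodes were called as cells. Gene coordinates come from a GENCODE annotation of mm10, and promoter windows from RefSeq on GRCm38.p6.

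From these counts, barcodes of 500 or more genes and no more than 10% mitochondrial UMIs entered, cells were gated as described, and UMIs were summed per group and scaled to CPM. With 1 library per condition no test was run. Intervals at 95% are exact (Poisson for CPM, Clopper-Pearson for shares, conditional binomial for ratios) and cover counting error only; precision is limited by the 6820057 UMIs of the gated cells and the 2888663 of the suprabasal cells. A gene counts as higher or lower beyond 2-fold on CPM + 5, where either group reaches 10 CPM. The 25 (against other cells), 15 (against suprabasal cells, each direction) and 20 (between subsets, each direction) genes of largest ratio at 50 CPM or more are named, leaving out the genes of the gate, sex-linked, immunoglobulin, haemoglobin, ribosomal protein and mitochondrial genes and unnamed models; list members may also be named. A gene that met this rule is not reported here, though counts over lists include it. The members, the 21 gene lists and the 12 marker lists were chosen with earlier results of these data known, and the subsets and the rule between them after their values were seen. Of 450 listed genes, 2 were not matched by name. No doublets were removed in the main analysis. The ratio calls were run on simulated data, in which all 200 genes changed 4-fold were called among 9599 genes (gated against other) and among 9068 genes (gated against suprabasal). The changed genes were at 50 CPM or more and the sums held counting error only. With a 4-fold change and a 2-fold bound, this outcome was close to fixed in advance. The simulation held no spread between cells, so it does not cover genes near 10 CPM or genes that rest on few cells. Alternatives were other bounds, pseudocounts, scalings and cell filters. Tools were python 3.11.15, numpy 2.4.6, scipy 1.17.1, pandas 2.3.3, scanpy 1.11.5 and matplotlib 3.10.9.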

Additional observations from a re-analysis of the deposited data

Results flagged for a closer look

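In barcodes that the gene and mitochondrial limits removed, 38 of the injured library also met the keratin, Ptprc and Krt1 and Krt10 conditions of the rule, and 0 of the uninjured library did. Of these 38, 21 had under 500 genes and 20 had over 10% mitochondrial UMIs, at a median mitochondrial share of 10.4%. They are outside every comparison above and show keratin signal in data that the comparisons did not use.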

How the results depend on the processing

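Against other injured cells, a pseudocount of 20 CPM left 491 genes more than 2-fold higher and 1039 lower; the other alternatives kept both counts within 1.5 times of 913 and 1844. Against suprabasal cells, where the counts were 1179 and 470, the number higher was 646 for the 78 gated cells with Krt14 and Krt5 at 100 or more per 10000, 483 (246 lower) at a pseudocount of 20 CPM, 1872 with cells weighted equally, 3089 within Xist-only cells (8 suprabasal cells) and 2687 (722 lower) against the 14 suprabasal cells at 500 or more per 10000. The cause of these shifts was not tested. The last 2 alternatives also turned the median log2 ratio of the wound keratin list over suprabasal cells, to 0.30 and 1.06. The share of gated cells with 2 or more G2 and M UMIs was 23.0% thinned to 2500 UMIs and 49.8% not thinned. Leaving out barcodes with genes of other cell types, cells under 5000 UMIs or the 5 genes that assigned the subsets, and the other thinning draw, were added after seeing the data. No paired analysis was possible because each condition had 1 library. Depth limits the 25 phagocyte-gene barcodes most, and the small groups, 8 to 36 suprabasal cells in a bin or split, rest on few cells.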
